A study of Mus musculus with 4 samples.

Results

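Heat shock proteins are chaperones that hold or refold unfolded proteins. The 10 genes described here were Hspa1a, Hspa1b, Hspa8, Hsp90aa1, Hsph1, Dnajb1, Dnaja1 and Hspb1, which make up a group of 8 stress-induced or general members, and Hspa1l and Hspa2, the 2 germ-stage members. They were chosen by name from the 32285 genes in the files, and all 10 were found. In a stressed cell, heat shock factors bind repeated GAA and TTC elements in front of the inducible genes and switch them on within minutes. Hspa1a and Hspa1b encode the inducible Hsp70, Hspa8 the constitutive one, Hsp90aa1 an Hsp90, Hsph1 the nucleotide exchange factor Hsp105, Dnajb1 and Dnaja1 are J-domain partners of Hsp70, and Hspb1 is a small heat shock protein. Spermatogenic cells make their own Hsp70 proteins: Hspa2 is a meiotic chaperone without which male mice are infertile, and Hspa1l is a spermatid Hsp70.

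The samples were testicular organoids (TOs) and testes of the mouse, profiled by droplet scRNA-seq with 2 libraries each (TO replicates 1 and 2, testis replicates 1 and 2). TOs had been rebuilt from single-cell suspensions of neonatal testes, aggregated and cultured in extracellular matrix. The design text gives 28 days for TOs and testes, whereas the dissociation protocol in the labels names day 21 TOs and the study's methods name day 28. For TOs these are days in culture of cells from neonatal pups, so the groups were not matched in age from birth. Both tissues were digested with collagenase and trypsin. The labels name no strain, genotype or treatment, whereas the study's methods give ICR mice, name 2 independent batches of organoids and call the 2 testis libraries biological replicates. How many animals or organoids went into a library is not given there, so the p-values measure the spread between these libraries.

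Libraries held 11826 to 14643 barcodes and 74988295 to 119966959 UMIs, and 8713 to 9867 cells per library were kept. The median depth of kept cells was 5479.5 and 7561 UMIs in TOs and 2549 and 3271 UMIs in testes, and the lowest depth of a barcode in the files was 500 and 501 UMIs in TOs against 1508 and 1588 UMIs in testes. Between 30 and 55 barcodes were shared by any pair of libraries. Cell types were rebuilt from clusters and fixed markers, so each name below means cells like that type. All markers of Sertoli, Leydig and myoid cells, macrophages and stroma were above the other cells in each of the 4 libraries, as were those of undifferentiated spermatogonia, leptotene and zygotene spermatocytes and round spermatids. Pachytene spermatocytes had 6 and 7 of 7 markers above the other cells in TOs and 4 and 5 of 7 in testes, and the largest cluster named diplotene and dividing scored nearly the same for both names (0.4563 and 0.455), so the border between these stages is uncertain. The largest myoid cluster scored 0.6343 for myoid cells and 0.6019 for stroma. A Leydig cluster of 372 and 268 TO cells and 18 and 5 testis cells scored 0.3435 for Leydig cells and 0.3362 for stroma. These borders with stroma are uncertain too. Endothelial-like cells were not compared, because in TOs they had 0 and 0 UMIs of Pecam1, the defining endothelial adhesion gene, against 308 and 274 CPM in testes. CPM is the usual scaled count: the UMIs of a gene over all UMIs summed over the cells of a type in a library. Late germ cells were few in TOs, with 37 and 16 pachytene spermatocytes, 13 and 15 round spermatids and 0 elongating spermatids, against 201 and 226, 2769 and 1814, and 282 and 2596 in testes.

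The stretches upstream of the members were searched for GAA and TTC elements, and those of the Hsp70 genes on chromosome 17 and of Hspb1 are printed. Hspa1a (ENSMUSG00000091971, chr17:34969190-34972156, minus strand) and Hspa1b (ENSMUSG00000090877, chr17:34956436-34959238, minus strand) lie beside Hspa1l (ENSMUSG00000007033, chr17:34972703-34979285, plus strand), and the upstream stretches of Hspa1a and Hspa1l run in opposite directions between both genes. RefSeq sequences of build GRCm38.p6 were found for 8 of the 10 members and not for Hspa8 and Hsp90aa1. The 250 bases before the start were searched for the paired element GAANNTTC or TTCNNGAA, each its own reverse complement, and matches are in capitals.
Hspa1a, chr17:34972157-34972406, minus strand: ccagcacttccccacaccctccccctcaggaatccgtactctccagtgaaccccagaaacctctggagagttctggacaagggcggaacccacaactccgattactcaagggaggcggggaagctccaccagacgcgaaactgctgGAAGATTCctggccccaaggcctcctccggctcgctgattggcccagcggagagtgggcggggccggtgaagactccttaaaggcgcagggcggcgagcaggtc
Hspa1b, chr17:34959239-34959488, minus strand: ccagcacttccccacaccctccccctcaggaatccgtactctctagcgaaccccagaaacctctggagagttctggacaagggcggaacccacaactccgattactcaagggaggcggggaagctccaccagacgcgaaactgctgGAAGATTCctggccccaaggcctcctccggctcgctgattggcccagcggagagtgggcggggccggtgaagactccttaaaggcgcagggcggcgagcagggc
Hspa1l, chr17:34972453-34972702, plus strand: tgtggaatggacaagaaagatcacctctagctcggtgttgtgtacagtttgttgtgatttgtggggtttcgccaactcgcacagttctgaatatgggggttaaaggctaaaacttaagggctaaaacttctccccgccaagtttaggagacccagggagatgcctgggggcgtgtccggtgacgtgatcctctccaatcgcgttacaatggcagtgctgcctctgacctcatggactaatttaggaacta
Hspb1, chr5:135887669-135887918, plus strand: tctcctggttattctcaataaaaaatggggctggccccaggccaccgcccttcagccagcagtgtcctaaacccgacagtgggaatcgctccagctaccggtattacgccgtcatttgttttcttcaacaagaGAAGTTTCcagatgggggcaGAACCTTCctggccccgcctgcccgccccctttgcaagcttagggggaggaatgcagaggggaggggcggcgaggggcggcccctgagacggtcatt
The stretches of Hspa1a and Hspa1b were identical at 247 of 250 bases (98.8%), with the element 104 bases before the start in both. Hspb1 had 2 elements, at 117 and 97 bases. The element was found in 5 of the 8 members with a sequence (Hspa1a, Hspa1b, Hsph1, Dnaja1 and Hspb1), and 12.8% of 32851 mouse promoters of the same length hold it. Since Hsph1 and Dnajb1 had 2 and Dnaja1 had 3 promoters in the table, the count per promoter was 6 of 12, with 1 of 3 for Dnaja1. No match was found for Hspa1l, Hspa2 or Dnajb1. A triple form of the element, longer than the pair, was found in 0 promoters of the members and in 0.466% of the 32851 promoters. The transcripts of Hspa1a and Hspa1b share much sequence (63.8% of the 31-base words of Hspa1a are in Hspa1b), but none of the words in their last 500 bases, where the 3′ tags fall.

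TO and testis were compared within 5 somatic types and 6 germ stages by edgeR's quasi-likelihood test on summed UMIs, and a call needed a p below 0.01 after Benjamini-Hochberg adjustment and more than 1 log2 unit of change. Of 110 pairs of a member and a cell type, 79 could be tested, 2 were called higher in TOs and 18 lower. The 2 higher calls were both Hspa1b, in myoid cells and stroma. The 18 lower calls were 7 of Hspa2, 5 of Dnajb1, 4 of Hspa1l and 2 of Hsp90aa1. Hspa1a (4 types tested), Hspa8 (9), Hspb1 (4), Hsph1 (11) and Dnaja1 (11) had no call. The members were read against the share of all tested genes called in either direction, which was 21.9% in Sertoli cells (members 3 of 8), 1.36% in Leydig cells (0 of 8), 15.6% in macrophages (4 of 8), 21.6% in myoid cells (5 of 10) and 17.1% in stroma (3 of 10). In germ cells that share was 5.5% in undifferentiated spermatogonia (members 2 of 6), 9.01% in differentiating spermatogonia (2 of 6), 11.3% in leptotene and zygotene spermatocytes (1 of 6), 0% in pachytene spermatocytes (0 of 6), 3.3% in diplotene and dividing spermatocytes (0 of 6) and 2.81% in round spermatids (0 of 5). Where no member was called by edgeR, unadjusted p-values below 0.05 numbered 5 in Leydig cells, 1 in pachytene spermatocytes, 2 in diplotene and dividing spermatocytes and 1 in round spermatids, and DESeq2 called 3, 0, 0 and 0. For lower calls alone the share of all genes was 15.3% in Sertoli cells, 13% in macrophages, 17.7% in myoid cells, 15.1% in stroma, 5.34% and 8.61% in undifferentiated and differentiating spermatogonia and 10.8% in leptotene and zygotene spermatocytes.

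**Figure D1:**
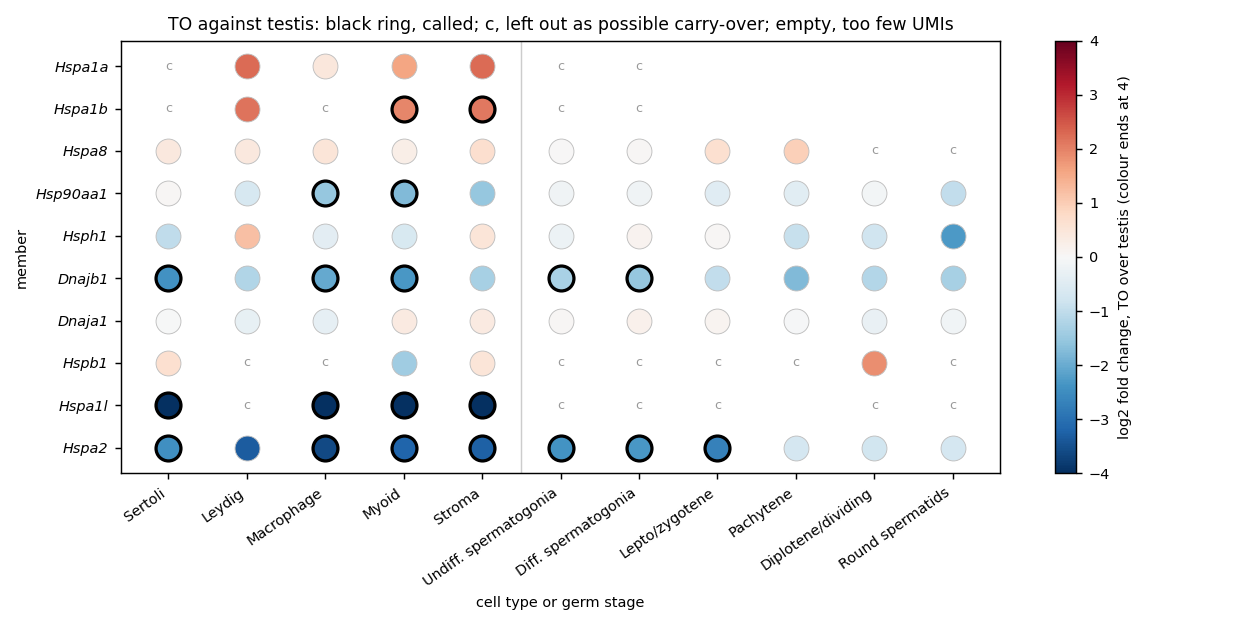
Log2 fold change of TO over testis (colour, red higher in TO) for the 10 members (rows) in 5 somatic types and 6 germ stages (columns). Black rings mark the 2 higher and 18 lower calls, c marks members left out of a type as possible carry-over, and empty places had too few UMIs.

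The inducible Hsp70 genes were highest in the interstitial cells of TOs. In stroma, Hspa1b stood at 213 and 118 CPM in TOs and at 31.6 and 48.4 CPM in testes, and the groups did not overlap. It rose by a log2 fold change of 2.11 (SE 0.33, edgeR adjusted p = 0.0036). In myoid cells, named from contractile genes, Hspa1b stood at 199 and 113 CPM against 33.2 and 45.3 CPM, a log2 fold change of 1.95 (SE 0.30, edgeR adjusted p = 0.0014). The smaller myoid cluster, led by Tagln and Rgs5, held 54 and 70 TO cells and 216 and 144 testis cells. Hspa1b there was at 160 and 108 CPM in TOs against 13.8 and 27.9 CPM in testes. In the largest myoid cluster it was at 200 and 114 against 42.1 and 53.4 CPM. The share of all tested genes called higher in TOs was 1.98% in stroma and 3.83% in myoid cells. Neither call held without testis replicate 1 (adjusted p = 0.029 in stroma and 0.016 in myoid cells, log2 fold change 1.86 and 1.74) or without testis replicate 2 (0.018 and 0.014, log2 fold change 2.38 and 2.15), when the lone testis library was assumed to vary like the TO libraries.

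In Leydig cells, the steroid-producing cells of the interstitium, Hspa1b was at 202 and 82.7 CPM in TOs and at 25.3 and 32.4 CPM in testes. That log2 fold change of 2.16 (SE 0.45) did not pass edgeR (adjusted p = 0.039), whereas DESeq2 called it (adjusted p = 9.8e-05). In macrophages the Hspa1b levels overlapped, at 33.8 and 12.1 CPM in TOs and 2.78 and 17.6 CPM in testes. Sertoli cells, the nurse cells of the tubule, had little of it, with 184 and 89 UMIs in TOs (12.9 CPM in replicate 1 and a little less in replicate 2) against 5 and 3 UMIs in testes (1.93 and 2.60 CPM). Hspa1b was left out of the Sertoli and macrophage tests because the other cells of the same libraries held at least 5 times its level. Without that rule, Sertoli Hspa1b was called with a log2 fold change of 2.61 (edgeR adjusted p = 0.0028).

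Hspa1a followed the same order but differed more between the TO libraries. In stroma it was at 263 and 86.2 CPM in TOs against 35.2 and 39.0 CPM in testes, and in myoid cells at 206 and 65.0 against 42.9 and 45.3 CPM. Each TO library was above each testis library in both types, with TO replicate 1 about 3 times as high as TO replicate 2. The log2 fold changes of 2.28 (SE 0.51, edgeR adjusted p = 0.016) in stroma and 1.57 (SE 0.47, edgeR adjusted p = 0.033) in myoid cells did not pass. Without TO replicate 2 both were called, at 2.81 (adjusted p = 5.9e-11) and 2.20 (3.1e-07), and without TO replicate 1 the stromal value was 1.25 (0.008). In Leydig cells Hspa1a was at 140 and 40.2 CPM against 19.7 and 14.1 CPM, a log2 fold change of 2.26 (SE 0.61, edgeR adjusted p = 0.074; 2.88 and adjusted p = 0.0074 without TO replicate 2). In macrophages the groups overlapped, at 74.6 and 14.5 CPM in TOs and 20.9 and 51.3 CPM in testes.

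**Figure D2:**
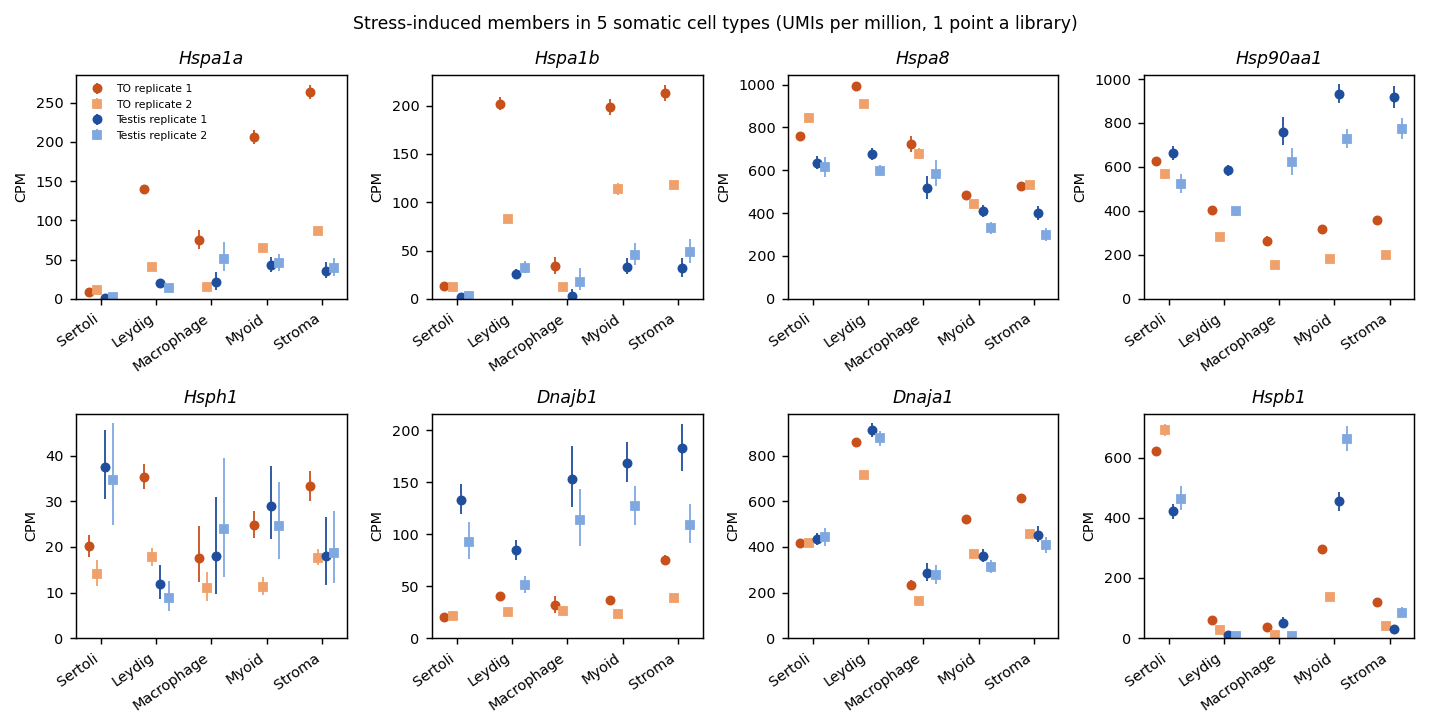
CPM of the 8 stress-induced members (panels) in 5 somatic types, with 1 point a library and exact 95% Poisson intervals, which cover counting error only. Hspa1a and Hspa1b lie higher in both TO libraries in Leydig cells, myoid cells and stroma, Dnajb1 lies lower in TOs in all 5 types, and Hsp90aa1 lies lower in macrophages, myoid cells and stroma.

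Because TO cells were sequenced more deeply, the share of cells with a UMI was taken after each cell had been thinned to 1500 UMIs, which left out 116 and 24 TO cells and 0 testis cells below that depth. In stroma, 40.6% and 22.8% of TO cells had a UMI of Hspa1a or Hspa1b, against 7.37% and 10.9% of testis cells (59.9% and 55.4% against 11.7% and 20.6% unthinned). Leydig cells had 35.9% and 13.7% against 5.99% and 4.68%, and myoid cells 36.8% and 21.9% against 10.6% and 11.1%. Sertoli cells were low throughout, with 3.98% and 2.63% against 0.637% and 1.32%, although their median depth in TOs was 10055 and 11340 UMIs per cell. The UMIs were spread over many cells: the 5% of TO stromal cells richest in them held 29.9% and 40.2% of the thinned Hspa1a and Hspa1b UMIs, and 57 and 4 cells had at least 5.

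**Figure D3:**
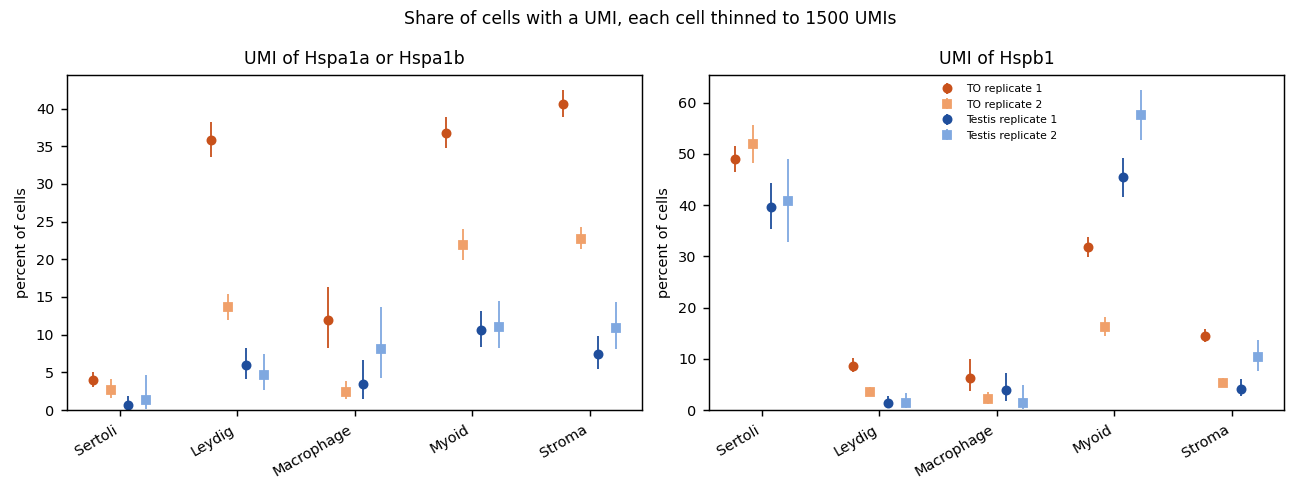
Percent of cells with a UMI of Hspa1a or Hspa1b (left) and of Hspb1 (right) after thinning each cell to 1500 UMIs, by somatic type, with 1 point a library and exact 95% binomial intervals for counting error only. The left panel shows TO Leydig cells, myoid cells and stroma at 13.7% to 40.6% and the same testis types at 4.68% to 11.1%.

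Genes that dissociation is known to switch on were higher in the same TO cells. The summed level of 12 immediate-early genes (Fos, Jun, Egr1 and related genes) in stroma was 14826 and 7411 CPM in TOs and 3445 and 1938 CPM in testes, in myoid cells 11900 and 6503 against 3180 and 2006 CPM, and in Leydig cells 3241 and 1838 against 1449 and 665 CPM. As for Hspa1a, TO replicate 1 was above TO replicate 2 in each of these types. Of the immediate-early genes tested, edgeR called 7 of 8 higher in TOs in Sertoli cells, 5 of 12 in myoid cells, 3 of 12 in stroma, 2 of 11 in macrophages and 0 of 12 in Leydig cells (4 with an unadjusted p below 0.05), and none lower, where the share of all tested genes called higher was 6.63%, 3.83%, 1.98%, 2.62% and 0.385% in the same order. Sertoli cells, where Hspa1a and Hspa1b were low, had 1826 and 1642 against 590 and 419 CPM, with Fos up by a log2 fold change of 3.83 (SE 0.52, edgeR adjusted p = 0.0014), Btg2 by 2.63 and Ier3 by 2.55. Over all kept cells, TOs had a higher median mitochondrial share, 3.37% and 3.38% against 1.18% and 0.81%. These medians mix cell types that differ in number. Germ cells made up 71.6% and 82.0% of kept testis cells but 9.49% and 7.88% of kept TO cells. The medians therefore cannot show whether the share differed within a type. The part of the immediate-early genes and the mitochondrial share in the Hspa1a and Hspa1b results was not tested. Culture and handling of the TO libraries cannot be told apart.

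Dnajb1, whose J-domain protein starts the Hsp70 cycle, was at 20.3 and 20.8 CPM in TO Sertoli cells and 133 and 92.6 CPM in testis Sertoli cells, at 36.9 and 23.6 against 169 and 127 CPM in myoid cells, and at 31.8 and 25.7 against 153 and 114 CPM in macrophages. Both TO libraries lay below both testis libraries in each. Dnajb1 fell by 2.42 (SE 0.23, edgeR adjusted p = 0.00031), 2.34 (SE 0.28, adjusted p = 0.0003) and 2.05 (SE 0.29, adjusted p = 0.00027) on the log2 scale. In stroma, at 74.8 and 38.2 against 183 and 109 CPM, its log2 fold change of -1.34 (edgeR adjusted p = 0.043; -1.90 and 8.4e-05 without TO replicate 1) did not pass, nor did that of -1.22 in Leydig cells (edgeR adjusted p = 0.091). Dnajb1 in testis somatic cells moved with spermatid RNA, as described below for Hspa2, in testis replicate 1 and hardly in testis replicate 2. After subtraction of free RNA, Dnajb1 was called in Sertoli cells (-1.71, edgeR adjusted p = 0.0063) and not in myoid cells (-1.51, adjusted p = 0.20) or macrophages (-1.35, adjusted p = 0.19).

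Hsp90aa1 was lower in myoid cells and macrophages of TOs. It was at 320 and 183 CPM in TO myoid cells against 934 and 728 CPM in testes, and at 263 and 154 against 761 and 623 CPM in macrophages. It fell by 1.78 (SE 0.32, edgeR adjusted p = 0.0029) and 1.56 (SE 0.32, adjusted p = 0.0039) on the log2 scale. In stroma, at 360 and 197 against 917 and 773 CPM, the log2 fold change of -1.55 missed the threshold (edgeR adjusted p = 0.015; -2.07 and 4.7e-05 without TO replicate 1). In Leydig cells the groups overlapped, at 404 and 283 against 585 and 398 CPM (log2 fold change -0.67, edgeR adjusted p = 0.24). Sertoli cells had 625 and 567 against 664 and 524 CPM, with a log2 fold change of 0.06 (SE 0.20, edgeR adjusted p = 0.83). The difference between the Hsp90aa1 change in Sertoli cells and that in stroma (1.66, edgeR adjusted p = 0.040), macrophages (1.64, 0.062) or Leydig cells (0.70, 0.46) was not called. The myoid call was lost without testis replicate 1 (Hsp90aa1 log2 fold change -1.58, adjusted p = 0.015) and without testis replicate 2 (-1.97, 0.012). The macrophage call was lost without TO replicate 2 (-1.19, 0.022) and without testis replicate 1 (-1.43, 0.03). Over the somatic types, Hsp90aa1 ran from 585 to 934 CPM in testis replicate 1 and from 398 to 773 CPM in testis replicate 2. Relative to the spermatid genes described below for Hspa2, its range was 1.73-fold and 3.19-fold, no narrower than in CPM. After subtraction of free RNA, Hsp90aa1 stood at -1.46 in myoid cells (edgeR adjusted p = 0.12) and -1.12 in macrophages (0.33).

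Hsph1, which resets Hsp70, went different ways in different cells. In Sertoli cells it was at 20.1 and 14.1 CPM in TOs against 37.5 and 34.6 CPM in testes, and in Leydig cells at 35.4 and 17.7 against 11.9 and 8.82 CPM. Neither comparison passed within its type, with log2 fold changes of -1.02 (SE 0.24, edgeR adjusted p = 0.015) in Sertoli cells and of opposite sign (SE 0.42, adjusted p = 0.13) in Leydig cells. A fit over all types with library as a block tested the difference between the 2 changes, which was -2.20 (SE 0.37, edgeR adjusted p = 4.2e-05). In that contrast 6.74% of 19103 genes were called. The difference between Sertoli cells and stroma was -1.47 (SE 0.39, edgeR adjusted p = 0.0094, with 5.52% of genes called), and it passed in none of 6 alternatives added after seeing the data, with Hsph1 adjusted p of 0.015 to 0.19. The difference from Leydig cells passed in all 6, at -2.87 to -1.90. In the other 4 contrasts of somatic types edgeR called 0 of the 10 members, with unadjusted p below 0.05 for 2 (Sertoli cells against macrophages, 3.61% of genes called), 1 (Leydig cells against stroma, 3.88%), 3 (Leydig cells against macrophages, 3.03%) and 1 (stroma against macrophages, 1.93%), and no other tool was run on these contrasts.

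Hspa8 and Dnaja1, the housekeeping members, had no call. Hspa8 was at 759 and 846 CPM in TO Sertoli cells against 635 and 615 CPM in testes, and at 995 and 911 against 675 and 597 CPM in Leydig cells. Its log2 fold changes in the 5 somatic types lay between 0.28 and 0.66, with edgeR adjusted p from 0.10 to 0.39. Dnaja1 stood between 162 CPM in macrophages of TO replicate 2 and 912 CPM in Leydig cells of testis replicate 1, and its somatic log2 fold changes lay between -0.34 and 0.37 (edgeR adjusted p of 0.31 to 0.99).

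Hspb1 was highest in Sertoli and myoid cells, where the direction differed. In Sertoli cells it was at 621 and 691 CPM in TOs against 422 and 463 CPM in testes, a log2 fold change of 0.63 (SE 0.18, edgeR adjusted p = 0.029). In myoid cells it was at 297 and 136 against 454 and 662 CPM, a log2 fold change of -1.41 (SE 0.36, edgeR adjusted p = 0.017; -2.06 and 1.4e-06 without TO replicate 1). The groups did not overlap in either type, and neither change passed. A difference between these 2 changes was not among the contrasts tested. In the largest myoid cluster alone, chosen after seeing the data, Hspb1 was called lower in TOs at -1.73 (edgeR adjusted p = 0.0083), with 297 and 133 CPM against 506 and 874 CPM, whereas the smaller one had 291 and 190 against 339 and 210 CPM. Hspb1 also varied among Sertoli clusters: a small cluster found in TO libraries alone stood at 1447 and 1882 CPM, against 558 and 613 CPM in the largest cluster of the same TOs and 444 and 306 CPM in that cluster in testes. The Sertoli cells of the libraries lay in different clusters: testis replicate 2 had 36 cells and 31 Hspb1 UMIs in the largest cluster and 104 of its 152 Sertoli cells in a cluster of its own, at 496 CPM.

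Among germ cells, Hspa2 peaked in meiosis and was not confined to it. In all 4 libraries its lowest stage was the undifferentiated spermatogonia, with 55.6 and 49.4 CPM in TOs and 289 and 213 CPM in testes, and its highest stage the pachytene spermatocytes, with 766 and 2554 CPM in TOs and 2333 and 2668 CPM in testes. The rise was 13.8-fold and 51.7-fold in TOs and 8.08-fold and 12.5-fold in testes. Diplotene and dividing cells had 761 and 1426 CPM in TOs and 1494 and 1494 CPM in testes, hardly less than at pachytene in TO replicate 1. Round spermatids had a mean of 874 CPM in TOs and 987 CPM in testes. These means were above those of leptotene and zygotene spermatocytes, at 106 CPM in TOs and 676 CPM in testes. The elongating spermatids of testes had 354 and 245 CPM. The order of these stages is given as a description with no test. The pachytene comparison had 37 and 16 TO cells, and its log2 fold change of -0.71 (SE 0.76, edgeR adjusted p = 0.65) became -2.09 (adjusted p = 0.00026) without TO replicate 2. After thinning, 38.2% and 86.7% of TO pachytene cells had a UMI of Hspa2, against 89.1% and 91.6% in testes.

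**Figure D4:**
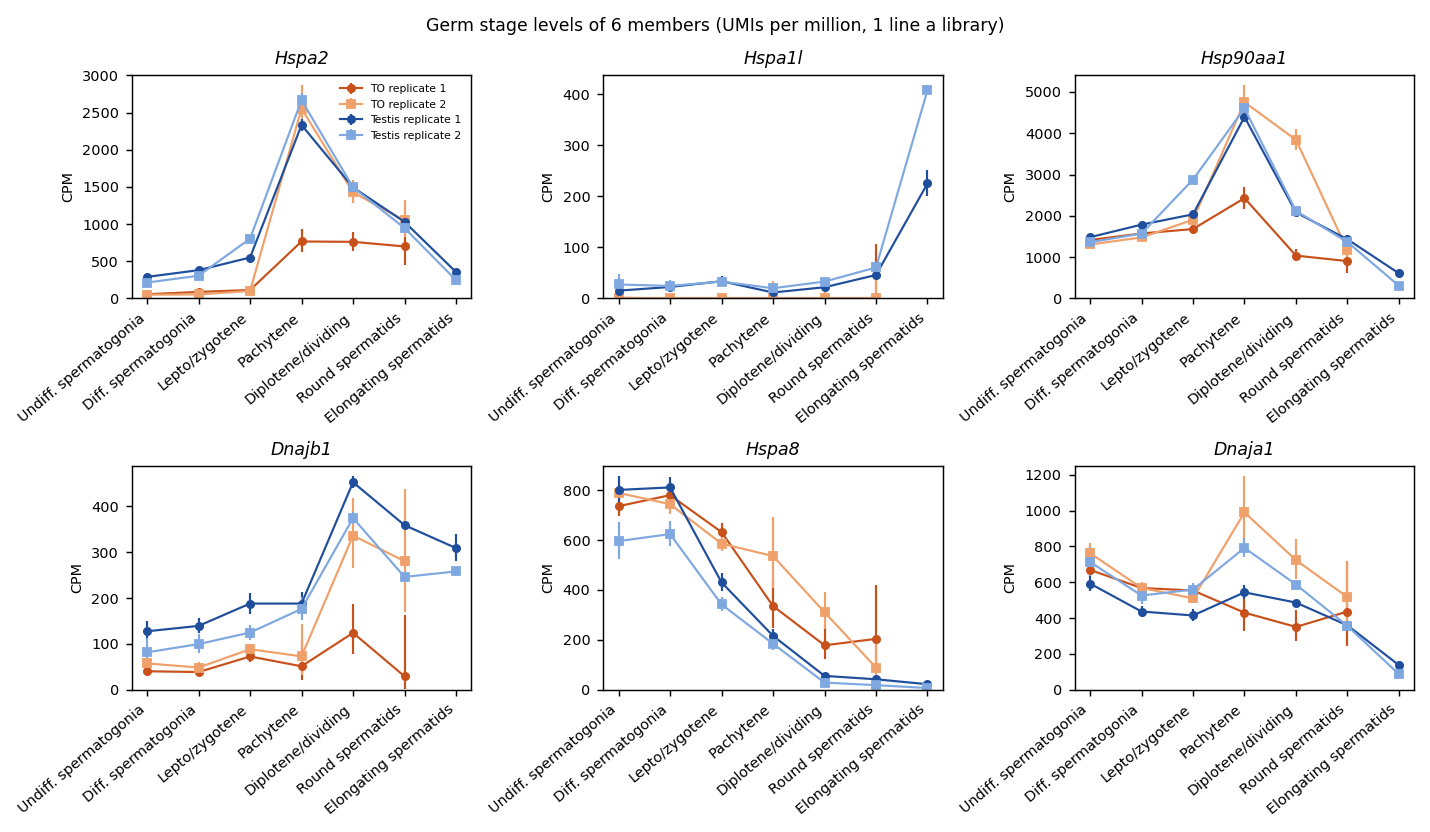
CPM of 6 members (panels) over 7 germ stages, with 1 line a library and exact 95% Poisson intervals for counting error only. Hspa2 and Hsp90aa1 peak at pachytene in all 4 libraries, Hspa1l climbs to 225 and 408 CPM in elongating spermatids of testes and lies at or near 0 in TOs, and Hspa8 is highest in spermatogonia in all 4 libraries.

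Before pachytene, Hspa2 was lower in TOs at each stage. Leptotene and zygotene spermatocytes had 112 and 99.8 CPM in TOs against 550 and 803 CPM in testes, and differentiating spermatogonia 86.6 and 52.7 against 380 and 305 CPM. It fell by 2.70 (SE 0.29, edgeR adjusted p = 4.4e-05) and 2.33 (SE 0.23, adjusted p = 2.3e-05) on the log2 scale, and by 2.38 (SE 0.23, adjusted p = 2.6e-06) in undifferentiated spermatogonia. Without testis replicate 2 the last of these did not pass (Hspa2 log2 fold change -2.57, adjusted p = 0.012).

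Hspa2 was also lower in TOs in somatic cells. Myoid cells had 86.6 and 47.9 CPM in TOs against 623 and 582 CPM in testes, stroma 75.8 and 34.3 against 618 and 456 CPM, Sertoli cells 74.8 and 57.1 against 426 and 327 CPM and macrophages 35.8 and 19.9 against 436 and 314 CPM. The calls were falls of 3.21, 3.25, 2.46 and 3.60 on the log2 scale (edgeR adjusted p = 0.00011, 0.0016, 0.00023 and 1.9e-05). Leydig cells, at 28.5 and 15.9 against 248 and 153 CPM, had a log2 fold change of -3.33 with an edgeR adjusted p of 0.011, which passed without TO replicate 1 (Hspa2 adjusted p = 0.0033), without testis replicate 1 (0.0069) and without testis replicate 2 (0.0018). The mean log2 fold change of Hspa2 over the 5 somatic types was lower than that over the 6 germ stages. The difference was -1.39 (SE 0.25, edgeR adjusted p = 1.7e-05, with 16.1% of 3143 genes called). Without TO replicate 2 it was -0.62, under the minimum fold. The germ stages before pachytene had -2.38, -2.33 and -2.70, near the Sertoli value of -2.46. Pachytene, diplotene and dividing, and round spermatid stages had -0.71, -0.77 and -0.72, and these raised the germ mean. Somatic types against the early germ stages alone was not tested.

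Testis somatic cells also held spermatid RNA. Summed over Prm1, Prm2, Tnp1 and Tnp2, which encode the protamines and transition proteins of spermatid chromatin, somatic cells had 1542 to 4166 CPM in testis replicate 1 and 2545 to 10699 CPM in testis replicate 2, and at most 3 CPM in TOs. For every 1000 UMIs of these 4 genes, the 5 somatic types of testis replicate 1 held 133 to 169 UMIs of Hspa2, a range of 1.27-fold, and those of testis replicate 2 held 30.6 to 94.7 UMIs, a range of 3.09-fold. In CPM, Hspa2 ran from 248 to 623 in testis replicate 1 and from 153 to 582 in testis replicate 2. Scaling to spermatid RNA thus narrowed the spread clearly in testis replicate 1 and only slightly in testis replicate 2. Spermatogonia of testis replicate 1 had 174 and 174 and those of testis replicate 2 had 64.3 and 78.8, close to or inside the somatic ranges, whereas pachytene spermatocytes had 1392 and 549. Dnajb1 held a range of 1.29-fold and 2.39-fold over the somatic types, Hspa1l of 1.38-fold and 1.98-fold and Hsp90aa1 of 1.73-fold and 3.19-fold. The same ranges were 21.3-fold and 52.4-fold for Hspa1b, 27.7-fold and 35.1-fold for Hspa1a and 23.2-fold and 101-fold for Hspb1. Hsph1 had 3.46-fold and 1.35-fold, the latter the narrowest range of the 10 members in testis replicate 2, Hspa8 had 4.55-fold and 4.98-fold and Dnaja1 6.77-fold and 8.33-fold.

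**Figure D5:**
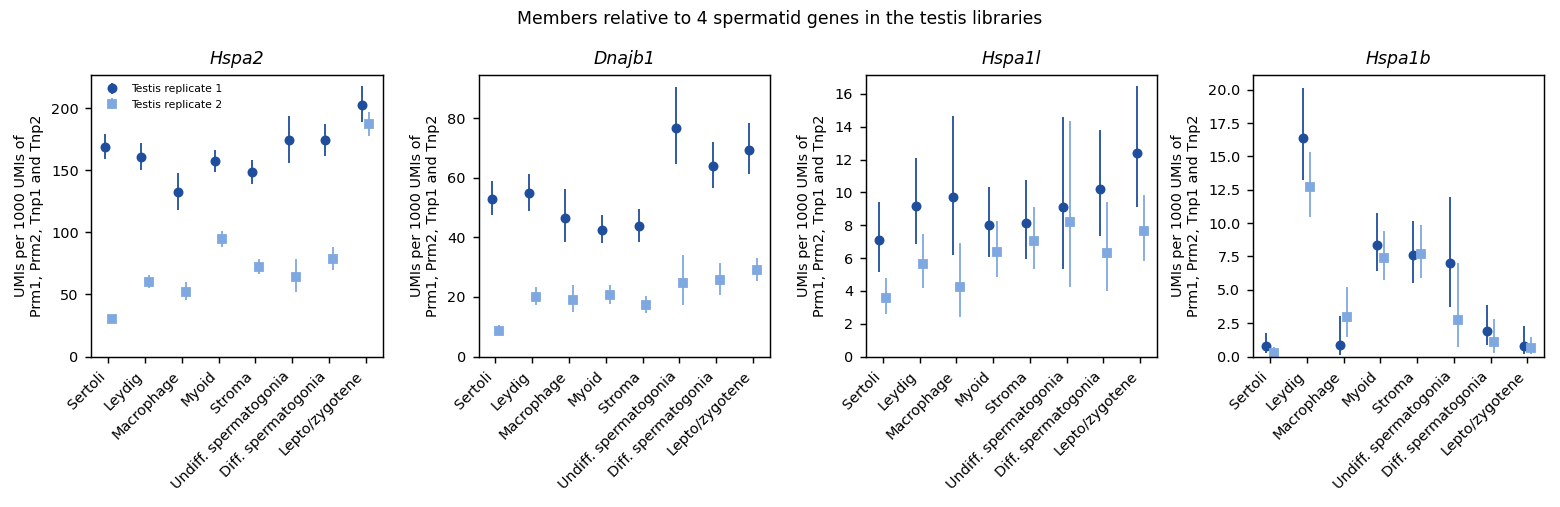
UMIs of Hspa2, Dnajb1, Hspa1l and Hspa1b (panels) per 1000 UMIs of Prm1, Prm2, Tnp1 and Tnp2 in 5 somatic types and 3 early germ stages of the testis libraries, with exact 95% intervals for counting error only. Hspa2, Dnajb1 and Hspa1l keep a narrow range over the somatic types of testis replicate 1, and Hspa1b does not.

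When a share of the library's own profile, set from germ markers in somatic cells and from somatic markers in germ cells, was subtracted from each sum before the fit, calls were 0 in macrophages, myoid cells and stroma. In Sertoli cells Dnajb1 and Hspa2 were called, and in germ cells Hspa2 was called in undifferentiated and differentiating spermatogonia and in leptotene and zygotene spermatocytes, and Dnajb1 in differentiating spermatogonia. The subtracted share came to 73.8% to 89.6% of the Hspa2 level in the somatic types of testis replicate 1 and 11.4% to 34.3% in those of testis replicate 2, and to 0.683% to 13.5% of Hspa2 in germ stages of testes. With so little taken away in germ stages, the calls kept there say little about RNA carried over from other germ cells. The pairs called before it kept the sign of their log2 fold change where they could still be tested. Hspa2 stood at -2.65 in myoid cells (edgeR adjusted p = 0.054), -2.80 in macrophages (0.050) and -2.47 in stroma (0.12), Hspa1l at -6.72 in myoid cells (0.035) and -6.81 in stroma (0.049), and Hspa1b at 1.87 in stroma (0.13) and 1.61 in myoid cells (0.093). Over all tested genes, the calls after subtraction were 0 in myoid cells, 0 in stroma and 29 in macrophages. The part of free RNA in the remaining differences was not tested.

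Hspa1l was a spermatid gene of testes. It was at 45.7 and 60.4 CPM in round spermatids and 225 and 408 CPM in elongating spermatids, with lower levels of 11.5 and 19.8 CPM in pachytene spermatocytes, so that both testis libraries gave the same order. After thinning, 24.5% and 42.1% of elongating spermatids had a UMI of Hspa1l (49.3% and 78.6% unthinned). In TOs 0 UMIs were counted in 5 of the 6 germ stages present, and 2 UMIs in undifferentiated spermatogonia of TO replicate 1. Taking 3 counts over both TO libraries as the floor, testis levels were at least 51.4-fold higher in leptotene and zygotene spermatocytes and at least 33.8-fold higher in differentiating spermatogonia. With 13 and 15 round spermatids in TOs the bound was 1.72-fold, so at this depth little can be said of that stage. Hspa1l was left out of the germ stage tests as possible carry-over, since other testis cells held at least 5 times its level, or for few UMIs.

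In somatic cells, Hspa1l was at 17.8 and 38.1 CPM in testis Sertoli cells, 31.6 and 39.1 CPM in myoid cells, 33.8 and 44.5 CPM in stroma and 32.0 and 25.6 CPM in macrophages. TO libraries had at most 1.51 CPM. The 4 calls (edgeR adjusted p of 6.8e-05 to 0.0005) rested on 0 to 5 UMIs in a TO library, and Hspa1l in testis somatic cells moved with the 4 spermatid genes as given above.

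The other members showed stage patterns of their own. Hsp90aa1 peaked at pachytene in all 4 libraries, with 2429 and 4753 CPM in TOs and 4396 and 4603 CPM in testes, against 1413 and 1305 and 1482 and 1360 CPM in undifferentiated spermatogonia. Its log2 fold changes at the 6 stages lay between -0.99 and -0.09 (edgeR adjusted p of 0.31 to 0.93), and the diplotene value of -0.09 became -1.65 (adjusted p = 0.00054) without TO replicate 2. Hspa8 went in testes from 801 and 596 CPM in undifferentiated and 811 and 624 CPM in differentiating spermatogonia down to 41.7 and 18.0 CPM in round spermatids. In TOs it stood at 736 and 789 CPM in undifferentiated spermatogonia and at 204 and 88.6 CPM in round spermatids, the latter from 7 and 6 UMIs. Dnajb1 reached 453 and 375 CPM in diplotene and dividing cells of testes and 124 and 336 CPM in those of TOs.

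Dnajb1 was lower in TO spermatogonia. It was at 40.2 and 57.3 CPM in the undifferentiated cells of TOs against 127 and 81.6 CPM in testes, and at 38.5 and 48.3 against 139 and 99.5 CPM in the differentiating ones. It fell by 1.30 (SE 0.28, edgeR adjusted p = 0.0048) and 1.53 (SE 0.23, adjusted p = 0.00051) on the log2 scale. The first call was lost when TO replicate 1 (Dnajb1 adjusted p = 0.077), testis replicate 1 (0.48, log2 fold change -0.86) or testis replicate 2 (0.092, -1.54) was left out. Per 1000 UMIs of the spermatid genes, Dnajb1 in undifferentiated spermatogonia stood at 76.8 and 24.6, against 42.6 to 54.8 and 8.66 to 20.7 in somatic cells of the same testes. In leptotene and zygotene spermatocytes, at 72.5 and 88.3 against 188 and 125 CPM, its log2 fold change was -0.98 (edgeR adjusted p = 0.034; -1.26 and 3.9e-05 without testis replicate 2). At pachytene and diplotene, its values of -1.75 and -1.16 became -2.21 (adjusted p = 0.003) and -2.38 (5.4e-05) without TO replicate 2.

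The inducible Hsp70 genes were low in spermatogonia of both origins. Hspa1b was at 18.0 and 9.88 CPM in undifferentiated spermatogonia of TOs and 11.6 and 9.06 CPM in those of testes, and had 0 UMIs in pachytene spermatocytes of all 4 libraries. Hspa1a was at 11.8 and 4.94 CPM in undifferentiated spermatogonia of TOs and 23.2 and 27.2 CPM in those of testes, below each library's stromal level. In pachytene spermatocytes Hspa1a had 7 UMIs in TO replicate 1 (51.1 CPM in 37 cells) and 0, 1 and 0 UMIs in TO replicate 2 and testis replicates 1 and 2. Neither gene could be tested in a germ stage, for few UMIs or possible carry-over. Hsph1 was steady in early germ cells, between 39.0 and 57.7 CPM in spermatogonia and in leptotene and zygotene spermatocytes of the 4 libraries.

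Other chaperones were counted from fixed lists. Of the cytosolic chaperones and cochaperones, edgeR called 1 of 28 higher and 6 lower in TO myoid cells, 2 of 28 higher and 3 lower in stroma, 0 of 26 higher and 2 lower in Sertoli cells, 0 of 22 higher and 3 lower in macrophages and 0 of 26 in Leydig cells (5 with an unadjusted p below 0.05). Read against the shares of all genes called lower (17.7% in myoid cells, 15.1% in stroma, 15.3% in Sertoli cells and 13% in macrophages), these lower counts were near or under the background. Lower calls in germ cells were 2 of 22 in undifferentiated spermatogonia, 3 of 23 in differentiating ones and 3 of 22 in leptotene and zygotene spermatocytes. The shares of all genes called lower there were 5.34%, 8.61% and 10.8%. Round spermatids had 2 of 18, with 2.81% of all genes called in either direction. Pachytene and diplotene cells had 0 of 22 and 0 of 25. Tcp1, a subunit of the cytosolic chaperonin, fell by 2.22 (SE 0.25, edgeR adjusted p = 0.00025) in myoid cells, 2.16 in stroma, 2.02 in macrophages and 1.52 in Sertoli cells. Fkbp4, an Hsp90 cochaperone, fell by 1.65 in macrophages and 1.56 in myoid cells. As given above, no call of any gene remained in myoid cells or stroma after free RNA was subtracted. The part of germ cell RNA in the falls of Tcp1 and Fkbp4 was not tested. Heat shock factors themselves gave 0 calls in any type, among 2 tested (Hsf1 and Hsf2), with an unadjusted p below 0.05 in 4 of 22 pairs of a factor and a type. Endoplasmic reticulum chaperones gave 1 call, Pdia4 among 10 tested in myoid cells (up by a log2 fold change of 1.24, edgeR adjusted p = 0.0094). Mitochondrial ones gave 2 among 6 tested in Sertoli cells, the proteases Lonp1 and Clpp (up by 1.39 and 1.18). The share of all genes called higher was 3.83% in myoid cells and 6.63% in Sertoli cells.

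Germ cell chaperones were lower in TOs wherever they were called. The calls were 9 of 11 tested in Sertoli cells, 7 of 7 in macrophages, 10 of 10 in myoid cells, 9 of 10 in stroma, 4 of 7 and 5 of 8 in undifferentiated and differentiating spermatogonia, 7 of 10 in leptotene and zygotene spermatocytes, 1 of 10 in diplotene and dividing cells and 0 in Leydig cells (1 tested), pachytene spermatocytes (8) and round spermatids (9), where 1, 4 and 7 had an unadjusted p below 0.05 by edgeR. The share of all genes called lower was 15.3%, 13%, 17.7% and 15.1% in Sertoli cells, macrophages, myoid cells and stroma, 5.34% and 8.61% in spermatogonia, 10.8% in leptotene and zygotene spermatocytes and 2.03% in diplotene and dividing cells. Dnajb3, a spermatid J-domain gene, fell by 5.61 (SE 0.31, edgeR adjusted p = 5.8e-05) in Sertoli cells and 5.76 in myoid cells, and Clgn, a lectin chaperone of meiotic and later cells, by 2.66 in undifferentiated and 3.45 in differentiating spermatogonia. As with Hspa2, the testis somatic cells concerned held spermatid RNA at the levels given above, which do not cover the germ stages.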

How the data were processed

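Droplet scRNA-seq (10x 3′) of 2 TO and 2 testis libraries was used. The authors deposited unnormalized UMI counts for every gene in every barcode, made with Cell Ranger 7.1.0 on mm10 per the labels, and 0 columns of per-sample values were left unused. Doublets were removed with Scrublet (scanpy 1.11.5) at a share scaled to the barcode number, in place of DoubletFinder. Kept cells had between 1000 and 5000 genes, a total of 20000 UMIs or less and a mitochondrial share up to 10%. Harmony, in a reimplementation, joined the libraries without the 10 members among the variable genes, and Leiden clusters (leidenalg 0.10.2, resolution 1) were named from fixed markers. Because the names were rebuilt, values may differ from those of the study.

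UMIs were summed per library and type, and types with at least 10 cells in each library were tested with edgeR 4.0.16 under R 4.3.3 (TMM, filterByExpr, quasi-likelihood F test), the libraries being the replicates. Genes that were 5 or more times higher in the remaining cells than in the type were not tested there, as possible carry-over, whichever condition showed it. The contrasts between types used 1 fit with library as a block and TMM within each type. For the contrast of somatic and germ means, which called unchanged genes in the simulated data, only genes with at least 5 UMIs in each condition of every type were kept, a limit set after that test. Shares of cells were taken after thinning to 1500 UMIs, and intervals are exact 95% ones for counting error only. Gene positions are from GENCODE M21 and upstream sequences from RefSeq (GRCm38.p6).

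The members, lists, markers and tests were chosen with earlier results of these data known. All 10 members are named. From each wider list, the 3 called genes with the largest absolute log2 fold change and at least 50 CPM in either condition could be named, and for Hspa2, Hspa1l and Hspa1b the 5 genes with the highest Pearson correlation of log2(CPM + 1) over sums of at least 20 cells. Some genes that these rules name are not reported here. Alternatives were DESeq2 1.42.0, other scalings, gene, carry-over, cell and doublet filters, clusterings, a replicate block, leaving out each library and subtracting free RNA. Alternatives limited to the largest cluster of each somatic type, and all those for the contrasts between types, were chosen after seeing the data. On simulated sums of 13432 genes at Sertoli depth, the edgeR test called 66%, 86% and 94% of genes changed by 1.5, 2 and 3 on the log2 scale and 0 unchanged genes. At Leydig depth it called 46%, 80% and 98% and 2 unchanged of 14921 genes.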

Additional observations from a re-analysis of the deposited data

Results flagged for a closer look

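Differences between cell types in the change from testis to TO were called for 2 members. Of all tested genes, edgeR called 6.74% for Sertoli against Leydig cells, 5.52% for Sertoli cells against stroma and 16.1% for somatic against germ means. For Hsph1, the log2 fold change in Sertoli cells was lower than that in Leydig cells by a difference of -2.20 (SE 0.37, edgeR quasi-likelihood adjusted p = 4.2e-05), and lower than that in stroma by a difference of -1.47 (adjusted p = 0.0094), which passed in none of 6 alternatives (Hsph1 adjusted p of 0.015 to 0.19). TO Sertoli cells were below testis Sertoli cells in 2 of 2 libraries, and TO Leydig cells above testis Leydig cells in 2 of 2. For Hspa2, the mean log2 fold change over somatic types was lower than that over germ stages by a difference of -1.39 (adjusted p = 1.7e-05), which fell under the minimum fold without TO replicate 2 (-0.62) and did not pass after free RNA was subtracted (Hspa2 difference -0.71, adjusted p = 0.14). In the same testis somatic cells the 4 spermatid genes stood at 1542 to 10699 CPM, and their part in the Hspa2 difference was not tested. In germ stages before pachytene, the Hspa2 log2 fold changes of -2.70 to -2.33 lay near the Sertoli value of -2.46. Those of the later stages were -0.77 to -0.71.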

How the results depend on the processing

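Of the 20 member calls none changed direction in any alternative. The number of members called moved by over 1.5 times as follows, with the cause not tested unless named. In Leydig cells it was 0, and 1 with library totals without TMM, with genes of any count, with the replicate block and with no doublet removed, 2 at an adjusted p below 0.05 with no minimum fold, 3 by DESeq2 and 3 with no gene left out. In Sertoli cells it went from 3 to 5 with no gene left out and to 5 at the looser threshold, and to 0 when genes were left out from 2 times the level of other cells. That limit also gave 1 in macrophages (4), 3 in myoid cells (5), and 0 in undifferentiated (2) and differentiating (2) spermatogonia, since fewer genes were tested. In stroma (3) DESeq2 gave 5, the looser threshold 6, the replicate block 6 and resolution 0.5 gave 5. Subtracting free RNA gave 0 in macrophages, 0 in myoid cells, 0 in stroma and 1 in undifferentiated spermatogonia, where DESeq2 and each cell's own marker score also gave 1. In leptotene and zygotene spermatocytes (1) no gene left out, the looser threshold and resolution 0.5 gave 2, and in round spermatids (0) no upper cell limit gave 1. Leaving out a library gave 1 to 2 in Leydig cells, 2 to 4 in macrophages, 3 to 6 in myoid cells, 2 to 6 in stroma, 2 to 4 in Sertoli cells, 0 to 2 in undifferentiated spermatogonia, 1 to 2 in leptotene and zygotene spermatocytes, 0 to 2 in pachytene and 0 to 4 in diplotene spermatocytes (0 in both with all libraries), the highest values of these last being without TO replicate 2. Of the contrasts between types, 3 were called, 1 after free RNA was subtracted and 2 to 7 without a library, with 7 without TO replicate 1.

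Mean testis Hspa2 at pachytene (2500 CPM) was 2233 CPM with no upper cell limit and 1629 CPM with each cell's own marker score, and Hsp90aa1 (4499 CPM) was 4198 and 2509 CPM. Mean TO Sertoli Hspa1b (12.4 CPM) was 15.8 CPM by own score and 3.51 CPM after subtraction, and Hspb1 (656 CPM) 719 CPM after subtraction. Without thinning, the mean share of cells was 57.7% for Hspa1a or Hspa1b in TO stroma, 94.4% for Hspa2 in testis pachytene cells and 64.0% for Hspa1l in elongating spermatids. The deviations of same-numbered libraries correlated at -0.05 to 0.17, and with 2 libraries a group and no label that ties them the numbers were not taken as pairs. No Harmony, resolution 0.5, each cell's own marker score and no doublet removal left too few cells for some late stages or for myoid cells, which then gave no value. Pachytene and round spermatid comparisons in TOs are limited by their 37 and 16 and 13 and 15 cells.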

Other observations

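Genes whose levels most resembled those of a member were looked up over 47 sums of at least 20 cells, among 12390 genes with at least 50 CPM in 1 sum. Correlations are descriptions without a test, since the sums share libraries, depth and free RNA. For Hspa2 they were Bbof1 (Pearson r = 0.971), Cox8c (0.969), Gm11837 (0.966) and Rsph1 (0.966). For Hspa1l they were Cabs1 (r = 0.9896), Ubl4b (0.988), H1fnt (0.987), 1700016P04Rik (0.987) and Slfnl1 (0.987). For Hspa1b they were Fosl2 (r = 0.912), Smpdl3b (0.910), Echdc2 (0.884), Sec24d (0.882) and Ftx (0.880). Fosl2 encodes an AP-1 factor.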
